A study of Mus musculus with 49 samples.

Results

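Freshly isolated CD8+ T cells of mice with a tyrosine-to-phenylalanine knock-in (KI) of Stat5b were compared with those of WT littermates before any exposure to IL-2. This comparison uses 6 of the 48 RNA-seq libraries of the series, namely the 3 libraries of the group STAT5B.0h.WT and the 3 of the group STAT5B.0h.KI, chosen by their treatment group. Both groups came from spleens of mice labelled C57BL/6J, were purified with the same CD8+ T cell isolation kit, and received no cytokine. The KI mice carried the changed Stat5b on both alleles in every cell of the body, and Stat5a was left as in WT. The line was made by CRISPR/Cas9 in B6D2F1 zygotes and then backcrossed to C57BL/6J, and adult mice of both sexes were used in the study. The same tyrosine was replaced in STAT5A in a second line, whose 6 unstimulated libraries serve here as a reference. Because the change was germline, a difference between the groups can arise in the cells themselves or during the development of the animal, and these cannot be told apart here.

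STAT5A and STAT5B are close relatives that lie side by side on mouse chromosome 11 and carry signals from cytokine receptors to DNA. Receptors for IL-2, IL-7 and IL-15 share the gamma-c chain, and the kinases JAK1 and JAK3 bound to them phosphorylate STAT5 on a tyrosine near its C terminus, which lets it pair and bind sites of the GAS type. In CD8+ T cells, IL-7 sustains naive cells, and IL-15, read through the chain encoded by Il2rb, sustains memory-phenotype cells, which also carry receptors best known from natural killer (NK) cells. These receptors include the Ly49 family, encoded by the Klra genes, and the NKG2 family, encoded by Klrc1, Klrc2, Klrc3 and Klrk1, with the CD94 chain, encoded by Klrd1.

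The edit itself is shown first because every comparison rests on it. The guide matched the minus strand of Stat5b once, at chr11:100784292-100784311 of GRCm38 (mm10), beside the PAM shown in capitals, which lies within chr11:100784289-100784311. The reference and the repair donor are given for codons 694 to 703 of the coding sequence, in exon 17 of the 19 exons of the RefSeq transcript, at chr11:100784273-100784302 on the minus strand, with the 4 bases that differ in capitals.
Stat5b guide with PAM: ccggcagcgaaagcagctgaCGG
Stat5b reference: aaAgcagcTgaCggatAcgtgaagccacag
Stat5b KI donor: aaGgcagcAgaTggatTcgtgaagccacag
Counted from the first base of the start codon, the changes are A2082G, T2088A, C2091T and A2096T. The first 3 are silent, and A2096T turns the codon TAC at position 699 into TTC, giving Y699F.

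The edited gene was expressed at a similar level in both groups. Stat5b stood at 28.3, 29.7 and 29.5 RPKM (reads scaled to transcript length and to the mapped reads of the library) in the WT libraries and at 26.9, 27.2 and 27.0 RPKM in the KI libraries. Each KI library lay below each WT library, but the log2 fold change of -0.17 (SE 0.11) did not pass the test (adjusted p = 0.291, edgeR quasi-likelihood test with Benjamini-Hochberg adjustment). Stat5a, its neighbour and partner, gave 21.1, 21.8 and 21.6 RPKM in WT and 22.7, 21.4 and 21.2 RPKM in KI libraries, with overlapping groups and a log2 fold change of -0.04. A count per gene cannot show the base that was changed, so these levels check the labels only in that neither gene was lost. Within 5 megabases on either side of Stat5b, 193 other genes were tested, and 1, the naive-cell gene Igfbp4, was called lower and 16 higher. These are 8.81% of them, close to the 7.98% called over all genes tested.

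Of 15566 genes tested, 94 were lower and 1148 higher in Stat5b KI cells, where a call required both a fold of 2 or more and an adjusted p no higher than 0.05. These are 0.604% and 7.38% of the genes tested, or 7.98% together, and they are the background for the counts of members given for each gene list. Without the fold threshold, an adjusted p of at most 0.05 was reached by 1441 genes that were lower, or 9.26%, and by 2116 that were higher, or 13.6%. The 2 directions differed in level: of the 1148 genes called higher, 599 had a mean under 1 RPKM in the higher group, against 30 of the 94 called lower. The libraries held 34914679 to 41003468 reads on the transcripts used, so that 3 reads, taken as the floor of detection, equalled 0.0732 to 0.0859 CPM (reads scaled to library size). Log-scale levels correlated at 0.989 to 0.990 across genes between WT libraries, at 0.989 to 0.990 between KI libraries and at 0.975 to 0.979 between a WT and a KI library. Xist, transcribed from the inactive X chromosome of females, stood at 33.7 to 39.7 RPKM in all 6 libraries, and Kdm5d, on the Y chromosome, at 0 reads in each. The labels do not say that replicates came from separate mice, so that p-values measure spread between libraries. That spread was estimated over the 47 libraries of the fit, not from these 6 alone.

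**Figure D1:**
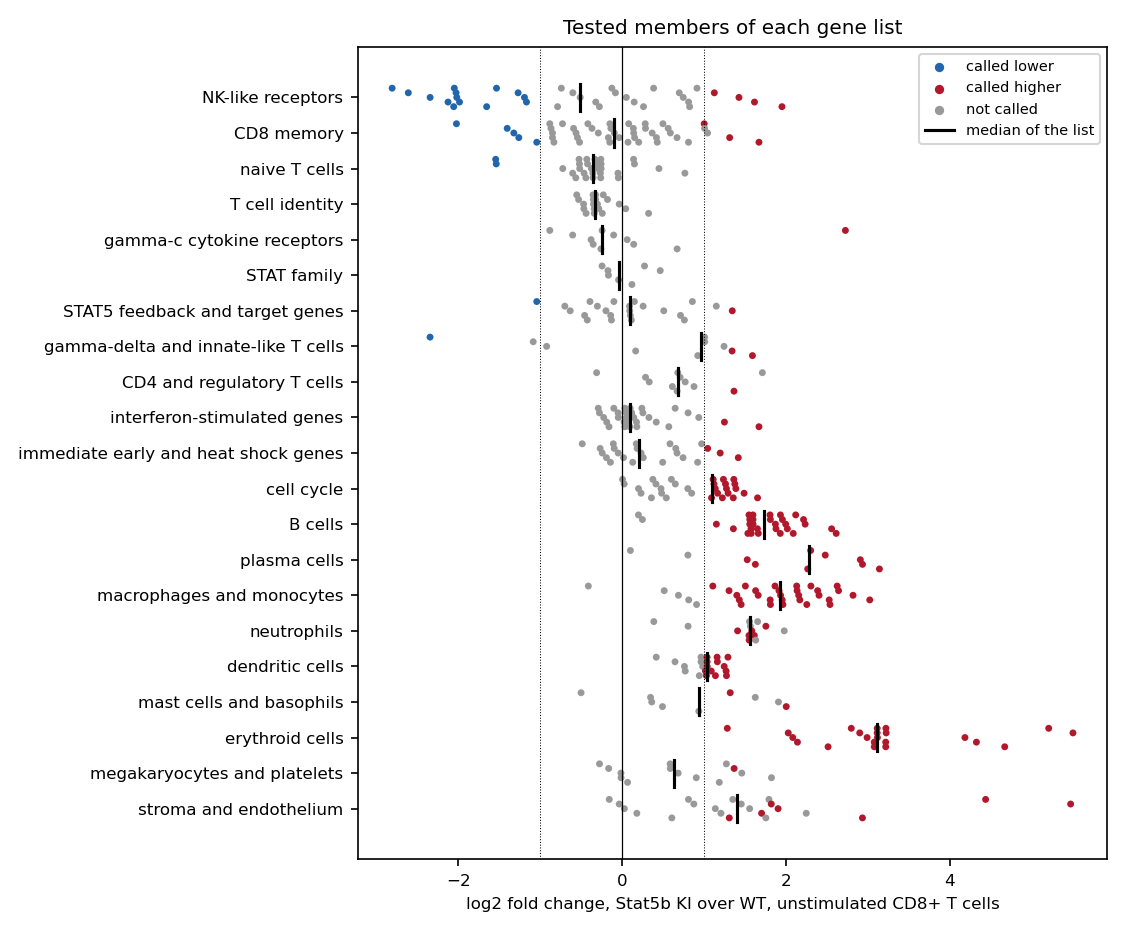
Each point is 1 tested gene, placed by its log2 fold change in Stat5b KI over WT libraries (3 a side) in the row of its gene list. Blue and red points were called lower and higher, grey points were not called, black bars are list medians, and dotted lines mark a fold of 2. Of the lists drawn, NK-like receptors hold most blue points (14 of 35), and B cell, myeloid and erythroid lists lie almost wholly to the right of 0.

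The NK-like receptors were the list with most members called lower. Of 35 members, all tested, 14 were lower, 4 were higher and 17 were not called, and the median log2 fold change was -0.51, against 0.01 over all genes tested. The genes called lower were 7 Ly49 genes, Klrc1, Klrc2, Klrc3, Klrk1, Klre1, Klrb1c and Itga2. In all 14 the highest KI library lay below the lowest WT library, which was also so, in either direction, for 41.6% of all tested genes.

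Klra7, which encodes the inhibitory receptor Ly49G, gave 12.4, 16.2 and 9.92 RPKM in WT and 1.83, 1.79 and 2.11 RPKM in KI libraries. It fell by 2.81 on the log2 scale (SE 0.33, adjusted p = 1.82e-07), which is a 7.01-fold lower level. Klra6, which encodes Ly49F, stood at 4.79, 6.51 and 4.13 RPKM in WT and at 0.997, 0.852 and 0.776 RPKM in KI libraries, a fall of 2.61 (SE 0.33). Both genes were thus low in every KI library and the KI libraries lay close together. The other Ly49 genes called lower were Klra10 (-2.35), Klra4 (-2.13), Klra1 (-2.02), Klra9 (-1.66) and Klra3 (-1.27), given as log2 fold changes. Klra8, which encodes the activating receptor Ly49H, gave 0.506, 0.506 and 0.766 RPKM in WT and 0.433, 0.920 and 0.401 RPKM in KI libraries, and the groups overlapped. Klra2 went the other way, from 0.0862 to 0.105 RPKM in WT to 0.282 to 0.449 RPKM in KI libraries (log2 fold change 1.95, SE 0.57, adjusted p = 0.0112).

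Outside the list, the largest Ly49 falls were in 3 symbols that name alleles or copies of this family, Klra12, Klra13-ps and Klra23. Klra13-ps gave 27.0, 28.8 and 23.5 RPKM in WT and 2.77, 3.94 and 2.68 RPKM in KI libraries, a fall of 3.14 (SE 0.27, adjusted p = 3.24e-10). Counts of Klra13-ps and Klra23 differed by at most 4.52% in each of the 6 libraries, and those of Klra6 and Klra19 by at most 6.82%, so that these pairs are likely to share their reads. Ly49 genes are near-identical copies. The authors kept uniquely mapped reads, and overlapping entries can count the same read, so the value of any single Ly49 gene is uncertain. In all, 14 of the 21 Klra symbols tested were called lower.

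The NKG2 receptors, which pair with CD94 or signal through DAP10, were also lower. Klrc1, which encodes the inhibitory NKG2A, gave 7.75, 10.3 and 6.19 RPKM in WT and 3.08, 2.16 and 3.47 RPKM in KI libraries (log2 fold change -1.54, SE 0.31, adjusted p = 0.000394). Klrc2, which encodes NKG2C, gave 4.21, 5.62 and 3.49 RPKM in WT and 1.60, 0.663 and 1.13 RPKM in KI libraries, a fall of 2.03 (SE 0.30). Klrk1, which encodes the activating receptor NKG2D, went from 11.6, 14.6 and 10.4 RPKM to 5.87, 5.49 and 5.63 RPKM, a fall of 1.17 (SE 0.21). For all 3 genes the groups were apart, and the relative spread was wider in KI libraries for Klrc2 than for Klrk1. Klrd1, which encodes the CD94 chain that pairs with NKG2A and NKG2C, was far more abundant than its partners, at 55.4, 52.0 and 51.0 RPKM in WT and 33.8, 24.8 and 50.2 RPKM in KI libraries. It was not called (log2 fold change -0.60, SE 0.24, adjusted p = 0.0655), and KI replicate 3 lay near the WT level. Hcst, which encodes the DAP10 adaptor of NKG2D, was the most abundant gene of the list and passed the test without reaching the fold of 2 (log2 fold change -0.51, SE 0.17, adjusted p = 0.0295).

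Klre1, which encodes a receptor of the same lectin-like family, gave 8.17, 11.1 and 7.06 RPKM in WT and 2.996, 1.77 and 1.81 RPKM in KI libraries, a fall of 2.06 (SE 0.30, adjusted p = 5.74e-06). Klrb1c, which encodes the NK1.1 antigen of NK cells, gave 1.84, 3.06 and 2.09 RPKM in WT and 0.610, 0.665 and 0.561 RPKM in KI libraries, a fall of 1.99 (SE 0.23). Ncr1, which encodes NKp46 and defines NK cells and related innate lymphocytes, was low in all libraries, at 0.371, 0.617 and 0.743 RPKM in WT and 0.848, 0.637 and 0.673 RPKM in KI libraries. Its groups overlapped and it was not called (log2 fold change 0.26, SE 0.41, adjusted p = 0.699). Thus 2 markers of NK cells did not move together, and the share of NK cells in the purified cells was not tested. The 4 members called higher were Klra2, Tyrobp, Fcgr3 and Sh2d1b1, of which Tyrobp and Fcgr3 are also expressed by macrophages and neutrophils. Tyrobp, the DAP12 adaptor, gave 36.1, 41.2 and 51.9 RPKM in WT and 115.9, 103.6 and 74.9 RPKM in KI libraries, and the groups were apart. Without KI replicate 1 its log2 fold change of 1.13 became 0.99, just short of the fold of 2.

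**Figure D2:**
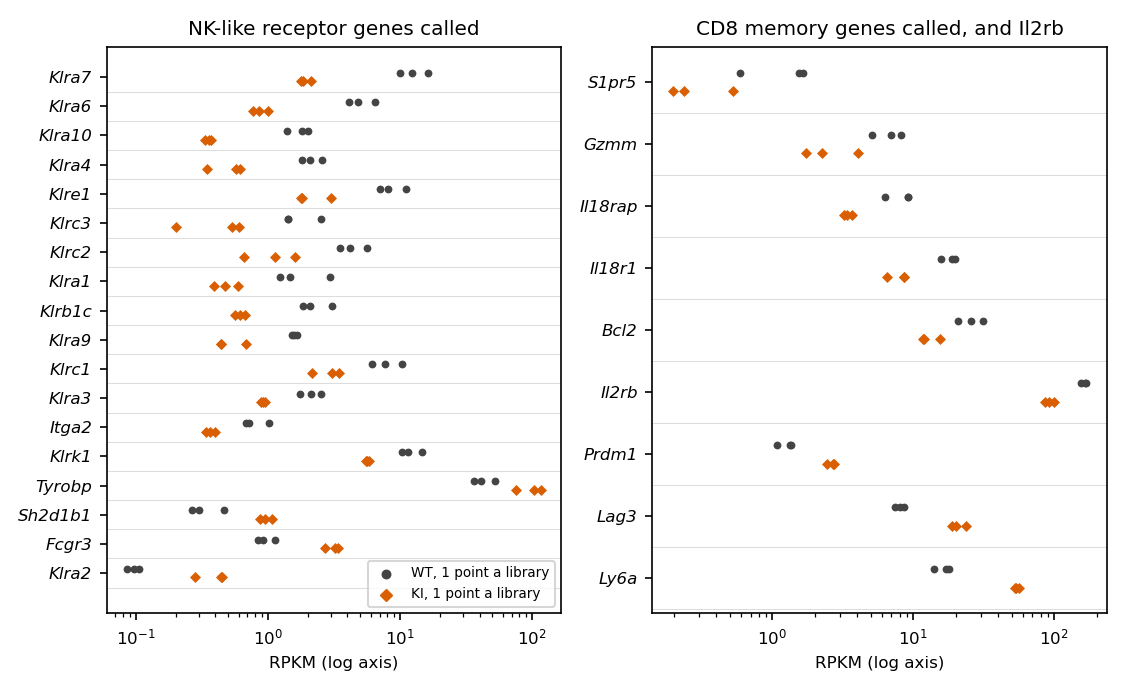
RPKM on a log axis of the NK-like receptor genes that were called (left) and of the CD8 memory genes that were called together with Il2rb (right). Grey circles are the 3 WT libraries and orange diamonds the 3 KI libraries of the Stat5b line. In every gene drawn the WT and KI libraries lie apart.

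Most of these receptors lie in the NK gene complex on chromosome 6. Between Klrb1a and Klra1 (chr6:128609227-130386874, GRCm38), 42 genes were tested, of which 14 were called lower and 3 higher, 40.5% in all against 7.98% over all genes. All but Klra13-ps of the 14 called lower were already counted in the NK-like list, so this share is not a separate result. Whether the calls were spread evenly over the complex was not tested. The 14 symbols called lower all belong to the Klr family, whereas Cd69 (log2 fold change 0.05), Clec2d (0.13) and Clec2i (-0.14), which lie among them and encode other lectin-like proteins, were not called. Several Klr genes were not called either, among them Klrd1 (-0.60), Klra8 (-0.08), Klrb1b (0.05), Klri1 (0.70) and Klra17 (0.82). Clec7a (1.40) and Clec12a (1.11), which encode lectins of myeloid cells, were higher. The median over the 42 genes was -0.02, since most genes not called lay at or above 0.

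**Figure D3:**
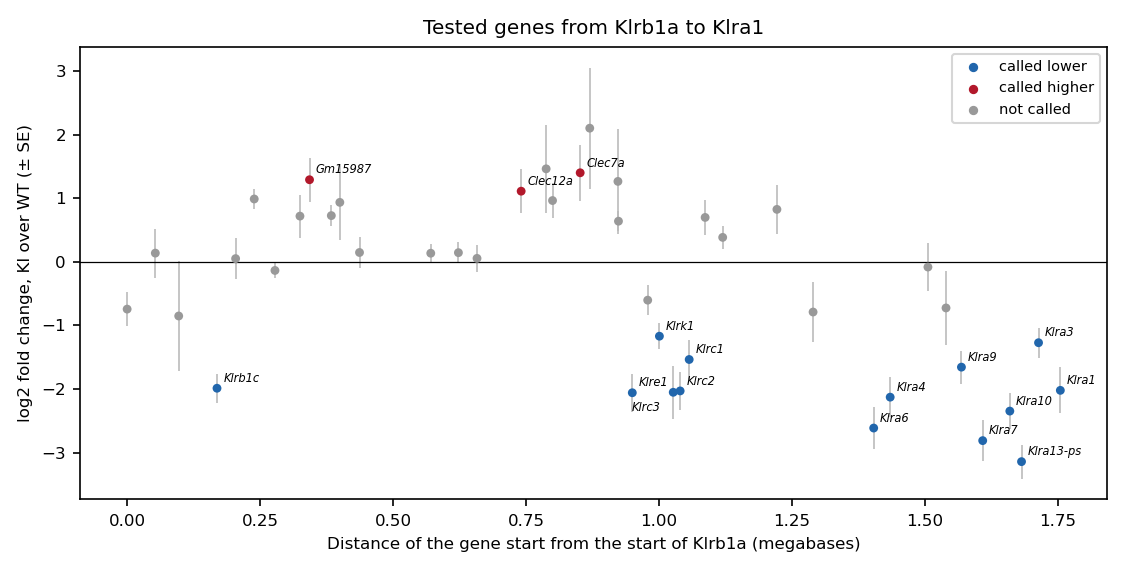
Log2 fold change (KI over WT, ± SE) of the 42 tested genes between Klrb1a and Klra1, against the distance of each gene start from the start of Klrb1a in megabases. Blue and red points were called lower and higher and are named. The 14 genes called lower are Klr genes, and genes near 0 or above it lie between them.

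CD8 memory genes moved in both directions. Of the 45 members, all tested, 5 were called lower and 3 higher, and at any fold 14 were lower and 8 higher with an adjusted p of at most 0.05. The median of -0.10 lay near the 0.01 of all genes. Genes of cytokine sensing, survival and circulation were on the lower side, whereas Eomes, Cxcr3, Cd44 and Gzmb were not called.

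Il2rb, the receptor chain through which CD8+ T cells read IL-15 and IL-2, was among the most abundant members, at 155.7, 169.1 and 165.4 RPKM in WT and 91.5, 99.6 and 86.2 RPKM in KI libraries. The groups were far apart, and its 1.85-fold lower level (log2 fold change -0.88, SE 0.16, adjusted p = 9.06e-05) passed the test but not the fold of 2. Bcl2, which protects memory and naive T cells from death, stood at 20.9, 25.7 and 31.0 RPKM in WT and at 11.9, 15.6 and 11.8 RPKM in KI libraries, a fall of 1.04 (SE 0.11, adjusted p = 5.44e-08). It sat close to the fold of 2, with log2 fold changes of -0.92 without WT replicate 3 and -0.98 without KI replicate 1. Both chains of the IL-18 receptor fell: Il18r1 went from 15.8, 19.8 and 18.9 RPKM to 8.57, 6.496 and 8.61 RPKM, a fall of 1.26 (SE 0.16), and Il18rap fell by 1.32 (SE 0.18). Gzmm, a granzyme of memory-phenotype and NK cells, gave 5.10, 8.25 and 7.00 RPKM in WT and 2.25, 4.02 and 1.75 RPKM in KI libraries, a fall of 1.40 (SE 0.33). S1pr5, a receptor that guides effector and NK cells out of tissue, was the lowest of the 5 in level and fell by 2.02 (SE 0.49, adjusted p = 0.00229).

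Several memory genes passed the test with a smaller fold, in both directions. At any fold 14 were lower and 8 higher, of which 5 and 3 were called. Those described next that passed were all lower. Tbx21, which encodes the transcription factor T-bet, gave 7.94, 11.1 and 9.54 RPKM in WT and 5.04, 6.31 and 4.97 RPKM in KI libraries (log2 fold change -0.87, SE 0.16, adjusted p = 0.000104). Ly6c2 and Ly6c1, surface antigens of memory CD8+ T cells, had log2 fold changes of -0.85 (SE 0.23) and -0.83 (SE 0.15). Ccl5, a chemokine that memory cells store as mRNA, had the highest level of the list, at 512.8, 843.8 and 541.2 RPKM in WT and 452.6, 373.5 and 367.6 RPKM in KI libraries (log2 fold change -0.73, SE 0.27, adjusted p = 0.0478). The factor Eomes, which drives Il2rb in memory-phenotype cells, gave 23.8, 29.4 and 17.4 RPKM in WT and 26.9, 37.7 and 25.3 RPKM in KI libraries. Its groups overlapped (log2 fold change 0.28, SE 0.18, adjusted p = 0.285), so the genes of this list did not share 1 direction.

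The 3 memory genes called higher were Ly6a, Lag3 and Prdm1. Ly6a, which encodes Sca-1, rose from 14.01, 17.1 and 17.96 RPKM to 53.9, 56.3 and 52.7 RPKM (log2 fold change 1.67, SE 0.31, adjusted p = 0.000179). Lag3, an inhibitory receptor of activated T cells, gave 8.65, 7.40 and 8.06 RPKM in WT and 20.1, 23.6 and 18.98 RPKM in KI libraries, a rise of 1.31 (SE 0.25). Prdm1, which encodes Blimp-1 and is also used by plasma cells, rose by 1.00 (SE 0.25). All 3 were apart between the groups in every library, and the part of other cell types in these rises was not tested.

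Naive T cell genes were mostly a little lower. Of 29 members, all tested, 2 were called lower and none higher, and 22 were lower and 2 higher with an adjusted p of at most 0.05 at any fold, around a median of -0.35. Dapl1, an abundant gene of naive CD8+ T cells, fell from 126.9, 145.6 and 157.3 RPKM to 56.5, 41.2 and 56.5 RPKM (log2 fold change -1.54, SE 0.20, adjusted p = 1.08e-06). Igfbp4, another naive-cell gene, fell from 66.0, 84.1 and 91.0 RPKM to 34.0, 19.2 and 32.9 RPKM, also by 1.55 (SE 0.27). Both were far below the rest of the list, whose lowest other member was Il6ra at -0.73. Tcf7, which encodes the factor TCF-1, gave 370.5, 400.5 and 392.7 RPKM in WT and 293.9, 312.0 and 300.2 RPKM in KI libraries (log2 fold change -0.42, SE 0.07). Ccr7, the chemokine receptor of lymph node entry, had a log2 fold change of -0.05 (SE 0.15) with overlapping groups. Il7r, the receptor for IL-7, went from 83.5, 65.5 and 57.5 RPKM to 46.2, 39.7 and 55.9 RPKM (log2 fold change -0.60, SE 0.18, adjusted p = 0.0105).

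Genes that mark T cells as such moved by a similar amount. Of 20 T cell identity genes, such as the chains of the CD3 complex, none was called, 13 were lower with an adjusted p of at most 0.05 at any fold, and their median was -0.33. Cd8b1 gave 315.8, 340.1 and 334.6 RPKM in WT and 252.5, 246.3 and 246.8 RPKM in KI libraries, and Cd3e had a log2 fold change of -0.47 (SE 0.12). The summed level of the list was 2718, 3057 and 2958 RPKM in WT and 2399, 2435 and 2268 RPKM in KI libraries, 0.813 times as high. In bulk RNA, fewer cells of a type and less RNA per cell cannot be told apart. When library sizes were set by these 20 genes, an alternative chosen after seeing the data, the median over all genes moved from 0.01 to 0.39, and 56 genes were called lower (0.36%) and 2365 higher (15.2%). Relative to that scale, 11 of the 35 NK-like receptors were still called lower, with Klra7 at -2.43, Klrc1 at -1.16 and Klrb1c at -1.61, and Klrk1 (-0.79), Klra3 (-0.90) and Itga2 (-0.82) were not. Members called higher became 9, with Klri1, Klra17, Fcer1g, Cd244 and Slamf7 added, and the median of the list moved from -0.51 to -0.14. Of the memory genes 2 were called lower, Gzmm (-1.03) and S1pr5 (-1.64), whereas Bcl2 (-0.67), Il18r1 (-0.88), Il18rap (-0.95) and Il2rb (-0.51) kept their direction below the fold of 2. With Il10ra, Bhlhe40 and Pdcd1 added, 6 memory genes were called higher and the median of the list moved from -0.10 to 0.28, so that the balance of its calls turned with the scale. Dapl1 (-1.16) and Igfbp4 (-1.16) stayed called, Sox4 (1.13) was called higher, and the naive median moved to 0.02, so that the list as a whole was not shifted on this scale. On it Ccr7 (0.33), Klra8 (0.28), Stat5b (0.20) and Il2rg (0.11) lay above 0, and Tcf7 (-0.05), Ccl5 (-0.35), Ly6c2 (-0.48), Il7r (-0.23) and Hcst (-0.14) did not pass the test. Eomes (0.66, adjusted p = 0.00316) and Cd44 (0.74, adjusted p = 0.000217) passed it as higher, below the fold of 2.

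Genes of other cell types were higher in Stat5b KI libraries. Over the 9 lists of B cells, plasma cells, macrophages and monocytes, neutrophils, dendritic cells, mast cells and basophils, erythroid cells, megakaryocytes, and stroma and endothelium, 175 genes were tested, 66.3% were called higher and none lower. The counts given for each list were the same or higher on the T cell identity scale, with the most added for stroma (7 to 15), dendritic cells (13 to 20) and neutrophils (6 to 11). The summed level of each of these lists was above 0 in WT libraries too, although some single genes, such as Dcn and Pdgfra of the stromal list, had at most 3 reads in each WT library. The part that other cells take in the changes of any gene was not tested.

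B cell genes were higher by similar amounts in all 3 KI libraries. Of 30 members 28 were called higher, with a median of 1.74, and their summed level was 201.8, 195.3 and 228.0 RPKM in WT and 647.3, 658.1 and 617.0 RPKM in KI libraries. Cd79a, a chain of the B cell receptor and the most abundant member, gave 20.0, 18.4 and 22.9 RPKM in WT and 84.9, 83.0 and 80.9 RPKM in KI libraries (log2 fold change 1.96, SE 0.37). Of 10 plasma cell genes 8 were higher, led in level by Igj, the joining chain of antibodies, at 37.4, 42.4 and 32.1 RPKM in WT and 274.1, 260.6 and 341.3 RPKM in KI libraries. The MHC class II genes, shared by B cells and dendritic cells, were the largest contribution in level: Cd74, the invariant chain, rose from 602.0, 661.4 and 857.4 RPKM to 1878, 1987 and 1556 RPKM. Of 21 dendritic cell genes 13 were higher, with a median of 1.04, and the list summed to 1609 to 2222 RPKM in WT and 3899 to 4978 RPKM in KI libraries.

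Myeloid genes followed. Of 34 macrophage and monocyte genes 29 were higher, with a median of 1.93, and the list, in which Mpeg1 was the most abundant gene, summed to 191.8, 191.0 and 222.3 RPKM in WT and 565.3, 487.0 and 395.6 RPKM in KI libraries. C1qa, a complement component made by tissue macrophages, gave 1.62, 2.07 and 2.47 RPKM in WT and 14.9, 12.1 and 10.1 RPKM in KI libraries, and Csf1r, the receptor for macrophage growth factor, rose by 1.95 (SE 0.41). Of 18 neutrophil genes 13 were tested and 6 were higher, with S100a8 at 2.49, 6.45 and 9.63 RPKM in WT and 15.7, 20.0 and 20.8 RPKM in KI libraries. The defining marker of platelets, Pf4, was between 0.0313 and 0.430 RPKM in WT and between 0.310 and 0.636 RPKM in KI libraries and was not called, and 1 of 14 tested genes of that list was higher. Of the mast cell and basophil genes, 2 of the 9 tested were higher, and of the stromal and endothelial genes 7 of the 22 tested.

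Erythroid genes had the highest median log2 fold change of all lists and the highest ratio of summed levels. All 22 members matched by symbol were tested and called higher, with a median of 3.12. Among them Hba-a1 and Hba-a2 had the same log2 fold change (3.115), and Hbb-b1 and Hbb-bs nearly so (3.225 and 3.222). Such globin symbols are not separate observations in the count, the median or the sum. The summed level was 58.5, 85.7 and 174.2 RPKM in WT and 1445, 586.1 and 863.9 RPKM in KI libraries, 9.09 times as high. Hbb-bs, a beta globin whose reads are shared with its near-identical neighbours, gave 9.81, 15.01 and 30 RPKM in WT and 262.1, 109.7 and 159.9 RPKM in KI libraries (log2 fold change 3.22, SE 0.54, adjusted p = 4.90e-05). Slc4a1, the anion exchanger of red cells, rose by 4.67 (SE 0.84), and Gata1, the erythroid transcription factor, by 1.28 (SE 0.33). KI replicate 1 was the highest and KI replicate 2 the lowest of the KI libraries in globins, whereas their B cell sums were alike and their Klra7 levels were 1.83 and 1.79 RPKM.

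**Figure D4:**
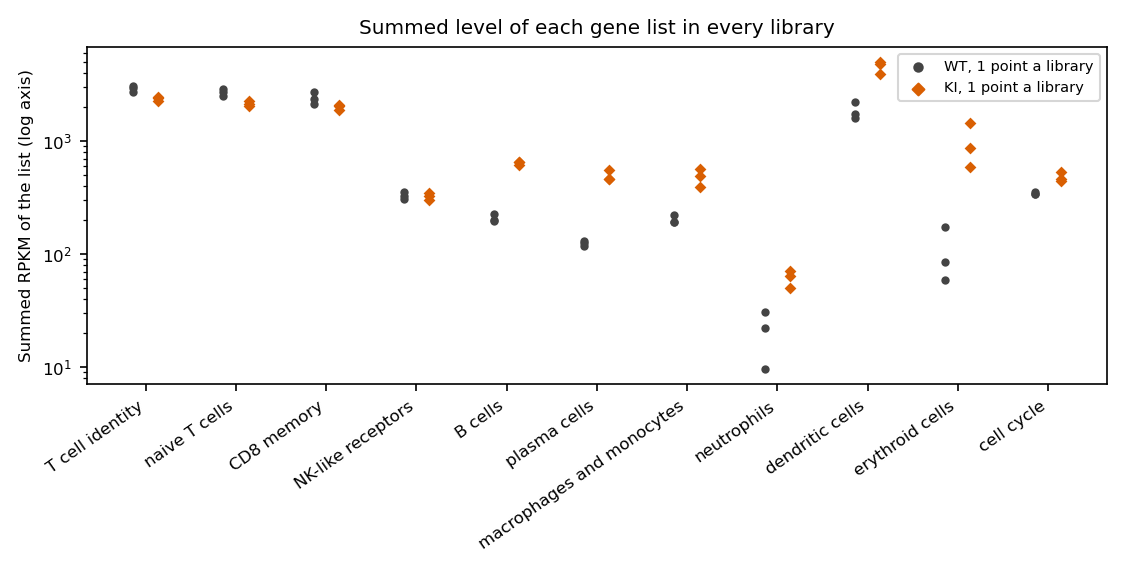
Summed RPKM of the members of 11 gene lists, on a log axis, with 1 point for each of the 3 WT (grey circles) and 3 KI (orange diamonds) libraries. T cell identity and naive sums lie lower in KI libraries, NK-like sums overlap, and B cell, plasma cell, myeloid and erythroid sums lie higher in every KI library.

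Cell cycle genes were higher as well. Of 30 members, all tested, 16 were called higher and none lower, and the median was 1.10, with 18 called higher on the T cell identity scale. The highest log2 fold change was that of Ccnb1, a cyclin of mitosis, at 1.38, 1.60 and 1.61 RPKM in WT and 4.23, 5.84 and 5.03 RPKM in KI libraries, and Mki67, a general marker of cycling cells, stood at 5.64 to 7.23 RPKM in WT and 15.5 to 17.2 RPKM in KI libraries. The lowest was that of Pcna, the clamp of DNA polymerase and the most abundant member, at 0.00 (SE 0.09), and the 6 Mcm genes, which encode the replicative helicase, lay between Mcm4 at 0.02 (SE 0.08) and Mcm5 at 0.48 (SE 0.11). In these libraries cycling cells of other types and cycling CD8+ T cells cannot be told apart.

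Among 11 CD4 and regulatory T cell genes matched by symbol, Cd4, which dendritic cells and macrophages also express, was the 1 called higher, from 6.14, 5.59 and 7.34 RPKM to 19.3, 18.1 and 13.9 RPKM, and the list's median was 0.68. On the T cell identity scale 7 of the 11 were called higher, with a median of 1.05, so this count depends on the scale. Of 10 gamma-delta and innate-like T cell genes found in the files, Cd163l1, a gene of gamma-delta T cells, fell by 2.35 (SE 0.37), and Zbtb16, which encodes PLZF, and Maf were called higher, 3 calls in all, against 1 lower and 5 higher on the T cell identity scale. Several defining genes of that list, such as those of the gamma and delta constant regions, were not analysed here.

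Of 11 genes of gamma-c cytokine receptors and their kinases, none was called lower, 5 were lower at any fold with an adjusted p of at most 0.05, and 1 was called higher. Il2rg, the gamma-c chain, had a log2 fold change of -0.26, which was 0.11 on the T cell identity scale, and Jak1 one of -0.38, both within the range of the T cell identity genes. The gene called higher, Il9r, which encodes the receptor for IL-9, rose from 0.691, 0.773 and 1.01 RPKM to 5.91, 6.05 and 5.13 RPKM (log2 fold change 2.73, SE 0.25, adjusted p = 1.85e-09). Il2ra, the alpha chain of the IL-2 receptor, gave 2.49, 1.76 and 2.31 RPKM in WT and 4.08, 2.85 and 3.99 RPKM in KI libraries and was not called (adjusted p = 0.206), although on the T cell identity scale it was called higher (log2 fold change 1.04, adjusted p = 0.0189). None of the 7 STAT genes was called at any fold.

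Known feedback and target genes of STAT5 were divided before any IL-2 was given. Of 24 members 23 were tested, and apart from Bcl2, called lower, and Tnfrsf8, called higher, none reached the call. On the T cell identity scale Socs2 (1.13), Bcl6 (1.23), Gadd45g (1.08), Lif (1.52) and Tnfrsf8 (1.71) were called higher and Bcl2 (-0.67) was not called. Cish, a feedback inhibitor, gave 4.21, 3.67 and 4.602 RPKM in WT and 2.89, 4.18 and 2.63 RPKM in KI libraries, with overlapping groups (log2 fold change -0.43, SE 0.23, adjusted p = 0.190). Socs2, another feedback inhibitor, stood higher in all KI libraries (log2 fold change 0.76, SE 0.22, adjusted p = 0.0120), and so did Bcl6, a gene that STAT5 represses (0.86, SE 0.17). Ccnd2, a cyclin that IL-2 induces, was lower in all KI libraries (-0.64, SE 0.09, adjusted p = 8.12e-06). Interferon-stimulated genes gave 2 calls among 30, Ly6a and Iigp1, both higher, and immediate early and heat shock genes 3 among 24, Egr2, Atf3 and Hspa1a, all higher. On the T cell identity scale these counts were 4 and 8, all higher. Iigp1 missed the adjusted p of 0.05 without WT replicate 2, WT replicate 3 or KI replicate 3 (log2 fold changes 1.04, 1.15 and 1.11), and the KI and WT libraries of Hspa1a overlapped.

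The letters of a GAS site, TTCNNNGAA, were searched in RefSeq promoters of GRCm38, from 250 bases before to 50 after each gene start. The motif reads the same on both strands. It was found in 8 of the 66 genes called lower that had a promoter listed, or 12.1%, in 9.45% of those called higher and in 8.51% of all tested genes with one. Of all 32851 promoters listed, 8.3% held it. Of the 14 NK-like receptors called lower, 2 held it (14.3%), as against 14.3% of the tested members of that list with a promoter listed, and of the 5 memory genes called lower, 2 did, as against 23.5% of that list. The sites in those 4 genes are printed to show what the match is, each with 10 bases on either side, on the strand of the gene, and with the 9 bases of the motif in capitals. Il18r1 held the motif at chr1:40465777-40465805 and chr1:40465844-40465872, Klra7 at chr6:130231858-130231886 and chr6:130231661-130231689, Klra10 at chr6:130281954-130281982 and Gzmm at chr10:79688924-79688952.
Il18r1, first: tcggggttagTTCTGGGAActgtggagct
Il18r1, second: agtacaggtcTTCCCAGAActgaaagctt
Klra7, first: ctttccatatTTCTTAGAAataattgctg
Klra7, second: tttaacatttTTCGTAGAAaccactcaag
Klra10: tttcttaaaaTTCACTGAAatctccattt
Gzmm: tgaatagcacTTCATGGAAcctgtgctgc
A match is not evidence of binding, and no binding data were used here.

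Among single genes outside the lists, those with the largest falls beside the Ly49 genes were chosen as the ones whose libraries did not overlap and whose mean was at least 1 RPKM. Drc1, a component of motile cilia, went from 0.821, 1.02 and 1.75 RPKM to 0.0483, 0.160 and 0.0782 RPKM (log2 fold change -3.70, SE 0.43, adjusted p = 1.73e-07). Kcnj8, a potassium channel gene, fell by 2.64 (SE 0.31) and Trnp1, a nuclear protein gene, by 2.60 (SE 0.43). Colec11, a collectin gene, had the lowest log2 fold change of all, at -5.52 (SE 1.23), but rested on WT replicate 2, with 0.157, 9.63 and 0.160 RPKM in the WT libraries, and was -1.19 without it and not called. Among the largest rises by the same rule, Slc4a1, Rhd, Aqp1 and the globins Hbb-b1 and Hbb-bs are expressed by red cell precursors. Others were Fcamr, a receptor for IgM and IgA (log2 fold change 4.68, SE 0.60), Postn, a matrix protein gene (3.86, SE 0.54), and S1pr3 (3.38, SE 0.40).

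The same comparison was made in the Stat5a line, to ask which changes were particular to the Stat5b mice. Its 3 KI libraries were compared with its own 3 WT libraries at the same time, in the same fit, where 28 genes were called lower (0.18%) and 0.861% of those tested were called higher. For 15 of 15566 genes (0.0964%), the KI effect differed between the lines by the same call rule. They were Klra12, Klra13-ps, Klra23 and Drc1, which fell further in the Stat5b line, and 11 genes whose value was higher there, among them Car2 (log2 fold change 0.48 in the Stat5a line) and Hemgn (-0.24) of the erythroid list. Without Stat5a KI replicate 1 the count was 105, and over the other 11 single omissions it ran from 6 to 37.

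For other genes the values of the 2 lines are given side by side. The NK-like median was -0.31 there, with 4 members called lower, against -0.51 and 14 in the Stat5b line, and no member of the list differed between the lines by the test. Klra7 had log2 fold changes of -2.81 in the Stat5b and -1.26 in the Stat5a line, and Klrc1 had -1.54 and -1.58. No member of the memory or naive list differed either, with Il2rb at -0.88 and -0.45, Bcl2 at -1.04 and -0.55, and Dapl1 at -1.54 and -0.67. B cell genes were also higher in the Stat5a line, where 14 of 30 were called and the median was 1.08. Erythroid genes had a median of 0.30 there with no call, and their sum overlapped between its groups, at 515.6, 261.7 and 93.0 RPKM in WT and 572.2, 307.3 and 205.5 RPKM in KI libraries. A p that misses the threshold does not show that the effects were alike, and the difference of the list medians was not tested.

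**Figure D5:**
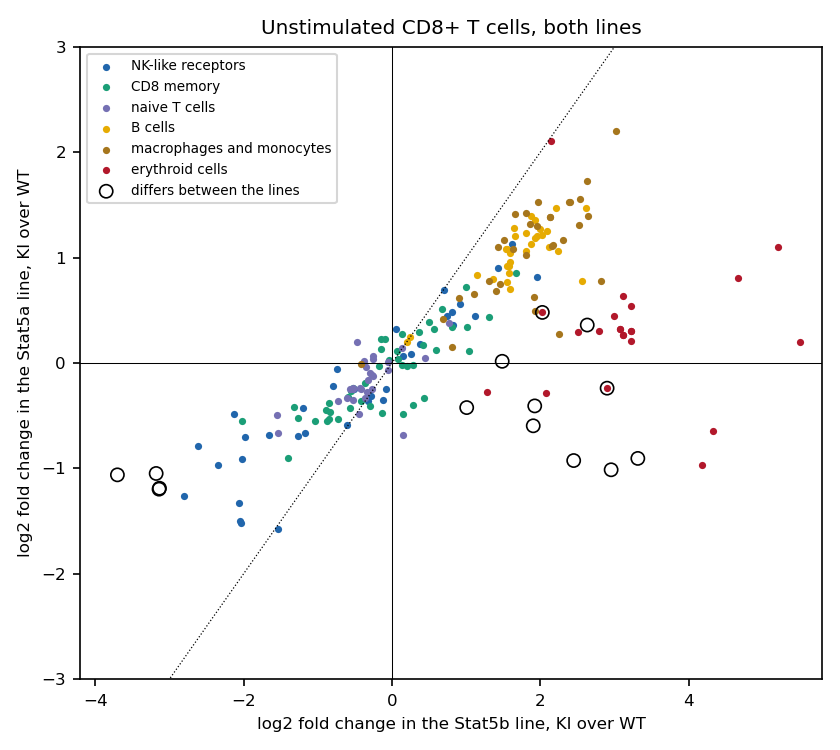
Log2 fold change of KI over WT libraries in unstimulated cells, in the Stat5b line (horizontal axis) and the Stat5a line (vertical axis), for the tested members of 6 gene lists. Open circles mark 14 of the 15 genes whose effect differed between the lines, 1 further circle and 1 of the 195 list members lie outside the axes, and the dotted line is equality. NK-like receptors lie below 0 on both axes where they are lowest, and erythroid genes lie far to the right near 0 on the vertical axis.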

How the data were processed

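The 48 deposited tables list, per the file headers, counts of reads and RPKM values for 31682 RefSeq transcripts. The authors sequenced single-end reads, aligned them with TopHat and kept unique matches (the submitters' processing notes name Bowtie2 2.2.6, TopHat2 2.0.11, SAMtools 0.1.8, bedtools 2.25.0, mm10), and the RPKM values were scaled by the authors to mapped reads. The counting program and strand setting are not given in the sources used here, so overlapping and antisense genes cannot be told apart.

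The longest transcript of each of 23992 symbols was kept. Deposited counts were fitted with edgeR 4.0.16 (R 4.3.3): TMM, filterByExpr with a minimum count of 10, a quasi-likelihood fit with 1 mean for each of 16 groups over 47 libraries (1 library of the Stat5a line at 4 hr, with 1028515 reads, was left out), and Benjamini-Hochberg adjustment over 15566 genes. SE is the absolute log2 fold change divided by the root of F. RPKM values are printed as deposited and were not tested, apart from limma 3.58.1 on log2(RPKM + 1). DESeq2 1.42.0 was the other alternative tool. In simulated data for Stat5b KI against WT on 15566 genes, an adjusted p of at most 0.05 was reached by 76% of 50 genes changed 2-fold and by 98% of 50 changed 4-fold. The changed genes were drawn from those above a minimum mean count, with as many raised as lowered. Recovery for genes of low level was therefore not measured.

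Genes were picked by a rule: in each gene list the 4 most abundant tested members and up to 6 called members of smallest adjusted p, and over all genes the 10 largest falls and rises with groups apart and a mean of at least 1 RPKM in the higher group, with fixed defining markers. The text describes some of the genes so picked, selected after their values were seen, as were the other genes it names. Members and lists were chosen with earlier results of these data known. Replicates of a group differed beyond sampling noise (chi-square per gene 7.66 to 25.9). Same-numbered WT and KI libraries had correlations of deviations of -0.006, 0.074 and -0.050, so the numbers do not pair them. Of the genes listed, 6 were not found among the tested genes under the listed symbol or the synonyms searched (Ly6g, Ahsp, Scart1, Trdc, Tcrg-C1 and Tcrg-C2). This does not show that they were absent under another name. A further 2 were tested under older symbols (Epb42 as Epb4.2, Izumo1r as Folr4) and are not in the list counts. Alternatives covered scaling, filters, the libraries fitted, the transcript per symbol, the tool, a replicate block, the fold threshold and each library left out, and scaling to T cell identity genes was added after seeing the data. A few genes that the rule names are not reported here.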

Additional observations from a re-analysis of the deposited data

Results flagged for a closer look

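For 15 genes the KI effect differed between the Stat5b and the Stat5a line by the test of the difference itself (edgeR quasi-likelihood test, with the call rule of the report). Given as the log2 effect in the Stat5b line minus that in the Stat5a line, it was lower for Drc1 (-2.64), Klra12 (-2.13), Klra23 (-1.95) and Klra13-ps (-1.94). Klra13-ps and Klra23 had counts within 4.52% of each other in each of the 6 Stat5b-line libraries, so these symbols are not separate observations. Of the 11 genes for which it was higher, 10 are given: Ncs1 (1.43), Nrn1 (1.47), Car2 (1.55), Sptb (2.27), Cdkn2a (2.50), Hemgn (3.14), Epb4.2 (3.38), Abcg4 (3.97), Apol11b (4.22) and Btnl10 (11.59). Btnl10 had 0 reads in all 3 WT libraries of the Stat5b line and in all 3 KI libraries of the Stat5a line, so that its fitted value is no measure of size. Set against a floor of 3 reads per library, Btnl10 was at least 7.48-fold higher in KI than in WT libraries of the Stat5b line. Car2, Sptb, Hemgn and Epb4.2 are genes of red cells, and the summed level of the erythroid list ran from 93.0 to 515.6 RPKM among the WT libraries of the Stat5a line. The WT level of Klra13-ps was itself different between the lines, at 23.5 to 28.8 RPKM in the Stat5b and 11.6 to 18.6 RPKM in the Stat5a line.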

How the results depend on the processing

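Of 2965 values for the 167 genes picked by the rule under the alternatives run, 2846 stayed on the same side of the threshold, 72 lost the call and 47 gained it. No called gene changed sign, but 39 values of 23 genes that were not called did, 19 of them with T cell identity scaling. Counts of genes moved more. Against 94 genes lower and 1148 higher, limma on log2(RPKM + 1) gave 27 and 266, no fold threshold 1441 and 2116, and scaling to T cell identity genes 56 and 2365, while a minimum mean of 1 RPKM gave 575 genes higher and all 48 libraries 646. Calls in the higher direction were 92.4% of all calls, 59.5% without the fold threshold and 97.7% with T cell identity scaling. Leaving out 1 library gave 86 to 98 genes lower and 864 to 1136 higher. The 15 genes that differed between the lines became 40 with DESeq2, 23 with limma, 7 with a minimum mean of 1 RPKM, 6 with all 48 libraries and 30 without the fold threshold, and ran from 6 to 105 when 1 library was left out. The 105 came without Stat5a KI replicate 1 and 37 without Stat5a WT replicate 3. It was 7 without Stat5b WT replicate 1, 8 without Stat5b KI replicate 1, Stat5b KI replicate 3 or Stat5a KI replicate 2, 9 without Stat5a WT replicate 2 and 6 without Stat5a KI replicate 3, so this count is the least stable of those given. NK-like receptors lower were 14 in each single omission and 8 with limma. Memory genes lower were 4 to 5 in single omissions, 3 with limma, 14 without the fold threshold and 2 with T cell identity scaling, and naive genes lower were 22 without the fold threshold. Erythroid genes higher were 12 with a minimum mean of 1 RPKM and 11 with limma, where fewer genes were tested. B cell genes higher ranged from 26 to 28 and macrophage genes from 21 to 32. With T cell identity scaling, STAT5 feedback and target genes turned from 1 lower and 1 higher to 0 lower and 5 higher. With the replicate number as a block, 89 genes were lower and 1069 higher, of which 87 and 1039 were among the calls without the block. The numbers did not pair the libraries. The cause of these shifts was not tested. Genes near the floor of 3 reads carry the least precision: 93 genes called higher had at most 3 reads in every WT library. A bound set from that floor carries no measure of the spread between libraries, whereas the SE comes from the fit.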
